A study of Rattus norvegicus with 22 samples.

Results

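Contused rat spinal cord was compared between animals given X-rays and animals given tempol, with 3 arrays in each group, so 6 of the 22 arrays of the series. The 6 arrays were taken by their titles, which name X-ray or tempol alone, and arrays of tempol combined with buthionine sulfoximine were not among them. In both groups a 10 g weight was dropped from 25 mm onto the cord at thoracic level 10. X-ray animals received a total of 10 Gy and tempol animals 275 mg/kg into the peritoneal cavity, each 20 min after the injury, and the cord was taken 24 h after it. Cord with contusion and no treatment (2 arrays), also taken 24 h after the injury, is shown beside them as an untreated comparison. The sources used here do not give the strain, sex or age of the rats, nor say if the arrays come from different animals. The p-values therefore reflect only how these samples scatter, which may be technical. The labels name no sham irradiation and no vehicle group.

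Ionizing radiation breaks DNA, and the transcription factor p53 answers such damage by switching on genes that hold the cell cycle, repair DNA or start cell death. Tempol is a nitroxide that crosses membranes and takes up superoxide much as superoxide dismutase does, so it acts on the oxidative chemistry of the injured tissue and not on DNA directly. A contused cord one day after injury holds dying neurons and glia, reacting astrocytes, neutrophils and arriving monocytes, so both treatments met a tissue in the midst of inflammation.

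Each array reports 31042 probe sets as a signal intensity on a linear scale, compared here as log2. A difference is X-ray minus tempol on the log2 scale, and the value after ± is its standard error from the limma fit. In counts over genes and in the gene lists, the probe set with the highest mean signal represents a gene with several, which gave 14217 genes. The 12 genes higher and 12 lower with the smallest p are each shown by the probe set with that p instead. For Creb1, Sord, Sbno1 and Creg1 another probe set was brighter than the one shown. Measures of RNA and hybridization quality overlapped between the groups, and 3 arrays against 3 cannot show a difference at 0.05. The log2 ratio of 3′ to 5′ signal for GAPDH averaged 0.40 ± 0.23 (SD) in X-ray and 0.57 ± 0.36 in tempol (exact two-sided permutation p = 0.6), that for actin 0.55 ± 0.07 and 0.34 ± 0.23 (exact p = 0.3), and the smallest p that this design allows is 0.1. The log2 signal of the spiked controls was 11.77 ± 0.27 (SD) in X-ray and 11.43 ± 0.84 in tempol, so it scattered more among the tempol arrays. X-ray arrays were closer to each other, with correlations from 0.813 to 0.843 over all probe sets, than tempol arrays, with 0.737 to 0.786. Between the groups the correlations ran from 0.761 to 0.783. The median SD of a probe set among the 3 arrays was 0.521 in X-ray and 0.643 in tempol. Spinal cord markers were bright in all 6 arrays, with Mbp of myelin between 20502 and 47535 and the synaptic Snap25 between 2302 and 4034.

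No probe set passed the threshold. With limma and Benjamini-Hochberg adjustment, 0 of 31042 probe sets (0%) had an adjusted p under 0.05, and the smallest was 0.235. At unadjusted p under 0.05 there were 898 probe sets higher in X-ray (2.89%) and 1109 lower (3.57%), 2007 in all where 1552 would be expected if no probe set differed. Over 1 probe set per gene these shares were 3.07% higher and 3.17% lower. The 3 X-ray arrays all lay above the 3 tempol arrays in 8.43% of the genes and all below in 7.01%, and every count of such genes below is read against these shares. Of all 14217 genes 51.3% had a difference above 0. Counts of list genes that stood higher or lower in X-ray are read against that share. The median standard error of a difference was 0.677, so a difference of a single gene had to be several-fold to stand out. A filter on low signal brought 1 probe set past the threshold, of Cdyl2, and leaving out tempol 2 brought 3, of Cdyl2, of the kinase gene Csnk2a1 and a probe set without a gene name.

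**Figure D1:**
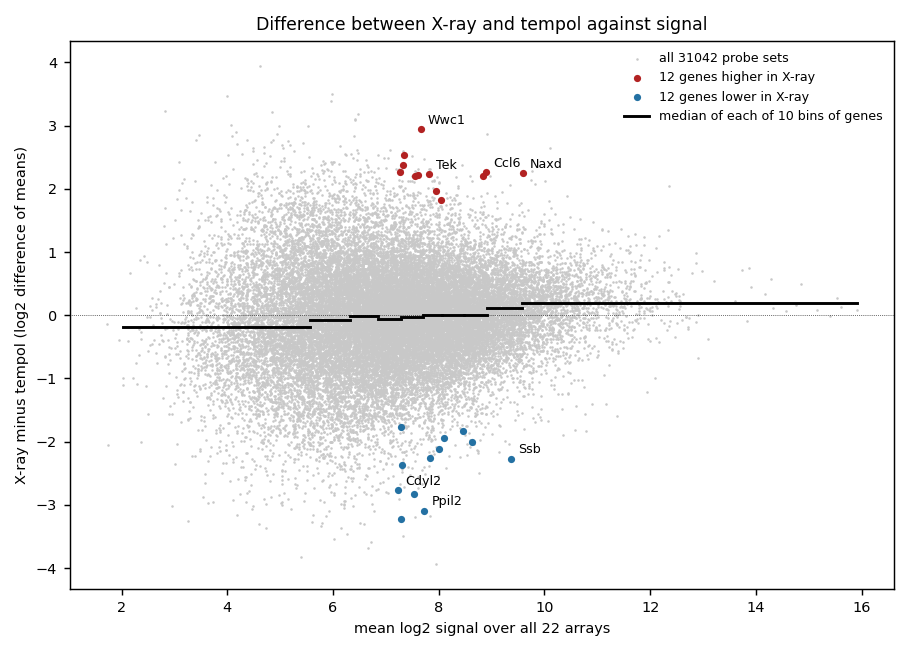
Log2 difference of X-ray minus tempol against mean log2 signal over all 22 arrays, 1 point per probe set. Coloured points are the 12 genes higher and 12 lower after X-ray with the smallest p, and black lines are the median difference in each of 10 equal bins of genes by signal, which runs from −0.19 among the dimmest to 0.19 among the brightest.

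The genes with the smallest p-values on the X-ray side included a cyclin that p53 controls, a pair of monocyte attractants and the receptor of angiopoietins. None of them passed, with adjusted p from 0.406 to 0.520 over these 12 genes, and they were taken among genes whose arrays do not overlap, so their lack of overlap is no finding. Contusion values, here and below, are given as a description only, since genes picked for a high or low group tend to stand apart from a further group in the same way. Cib2, whose product binds calcium and integrins, had signals of 280.3, 109.9 and 289.7 after X-ray and 57.1, 39.7 and 27.7 after tempol, a difference of 2.38 ± 0.51. Untreated contusion, at 153 and 77.8, lay above all tempol arrays and reached into the X-ray range. Ints14, a subunit of the Integrator complex that processes small nuclear RNAs, had 523, 418 and 394 against 99.5, 149.5 and 96.5 (1.97 ± 0.44, 229 and 153 in contusion), and its second probe set overlapped between the groups (−0.38 ± 0.73). Creg1 encodes a glycoprotein of lysosomes. Its signals were 215, 267 and 516 against 52.5, 55.6 and 102 (2.21 ± 0.51), with contusion at 111 and 243. Its second probe set also lay higher in all 3 X-ray arrays (1.48 ± 0.47).

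Ccng1, the cyclin G1 gene that p53 switches on, had 1489.7, 1346 and 1553 after X-ray against 484, 437 and 152 after tempol, a difference of 2.20 ± 0.54 (95% interval 1.06 to 3.34, 4.60-fold, adjusted p = 0.502). The contusion arrays, at 588 and 451, lay near the upper tempol arrays and well below X-ray. The chemokine gene Ccl6, whose product draws monocytes and macrophages, had 1332, 2139.7 and 2308 against 309.5, 262 and 739.5 (2.26 ± 0.55), with contusion between at 804 and 1295. Ccl7, another attractant of monocytes, had 822, 888 and 1031 against 271, 199 and 311 (1.83 ± 0.48, contusion 442 and 364).

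Tek encodes the angiopoietin receptor Tie2 of endothelial cells. Its signals were 308, 299 and 495 after X-ray, 50.2, 77.5 and 112 after tempol, and 308 and 449.5 in untreated contusion. X-ray and contusion thus overlapped while the tempol arrays lay below both (2.23 ± 0.56), an order also seen in Cib2 and Creg1. Against contusion Tek differed by −0.06 in X-ray and −2.29 in tempol. Naxd, which repairs damaged NADH and NADPH, showed 1726, 2645 and 3147 against 409, 551 and 596 (2.25 ± 0.60), with contusion at 516 and 1244, and its second probe set overlapped between the groups (−0.46 ± 0.96). Sord, the sorbitol dehydrogenase gene, differed by 2.22 ± 0.54, Sh3gl3, an endophilin gene, by 2.53 ± 0.67 and Hint3, of the histidine triad family, by 2.26 ± 0.57. The second probe sets of Sord (−0.78 ± 0.73, brighter than the one shown) and Hint3 (0.33 ± 0.79) overlapped between the groups. Wwc1, a scaffold of the Hippo pathway, is uncertain. Its brighter probe set had 511, 466 and 449.5 against 39.9, 32.3 and 184 (2.94 ± 0.69), while its other probe set stood lower in X-ray (−3.33 ± 1.08).

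The 12 genes with the smallest p-values on the tempol side had varied functions. They had adjusted p from 0.235 to 0.532 and were again taken among those without overlap. Cdyl2, a chromodomain protein that reads histone methylation, had the smallest p of all probe sets. It stood at 32.1, 47.6 and 24.4 after X-ray and 355, 138 and 242 after tempol, a difference of −2.77 ± 0.45 (6.82-fold lower in X-ray, adjusted p = 0.235), with untreated contusion at 205 and 166. Its second probe set overlapped between the groups (−0.82 ± 0.86). Ppil2, a cyclophilin with a ubiquitin ligase domain, had 56.6, 67 and 47 against 529, 416 and 505 (−3.09 ± 0.58, contusion 152 and 437). Creb1, the transcription factor of cyclic AMP signalling, had 24.8, 57.5 and 23.9 against 246, 181 and 275 (−2.83 ± 0.55, contusion 119.7 and 318). The other 3 probe sets of Creb1 gave −1.24 ± 0.79, −1.59 ± 0.79 and, on the brightest, 0.49 ± 0.55, so they did not all share a direction.

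Ssb, the La protein that binds the ends of new RNA polymerase transcripts, had 199, 108 and 294 against 724, 825 and 1194 (−2.27 ± 0.52, contusion 700.0 and 834). Its second probe set differed by −0.18 ± 0.41. Atpaf1, an assembly factor of the ATP synthase, differed by −1.94 ± 0.45, Rab35, a GTPase of endosome recycling, by −1.77 ± 0.45, and Stxbp5, the tomosyn that restrains vesicle fusion, by −2.01 ± 0.54. Sbno1 (−2.12 ± 0.57), the lamin-interacting Mlip (−2.37 ± 0.62), the epithelial transcription factor Grhl1 (−2.26 ± 0.62), the salivary protein gene Bpifa2 (−1.83 ± 0.48) and the olfactory receptor gene Or2b2 (−3.23 ± 0.65) completed the set. Second probe sets of Atpaf1 (0.48 ± 0.82), Sbno1 (−0.40 ± 0.43) and Grhl1 (−1.26 ± 0.75) overlapped between the groups, and the other 2 of Stxbp5 stood on opposite sides (0.32 ± 0.63 and −1.03 ± 0.64). The contrasts of X-ray and of tempol with untreated contusion share the same 2 contusion arrays, and in neither did a probe set pass (0 of 31042 each by limma, with 1492 and 875 at unadjusted p under 0.05).

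**Figure D2:**
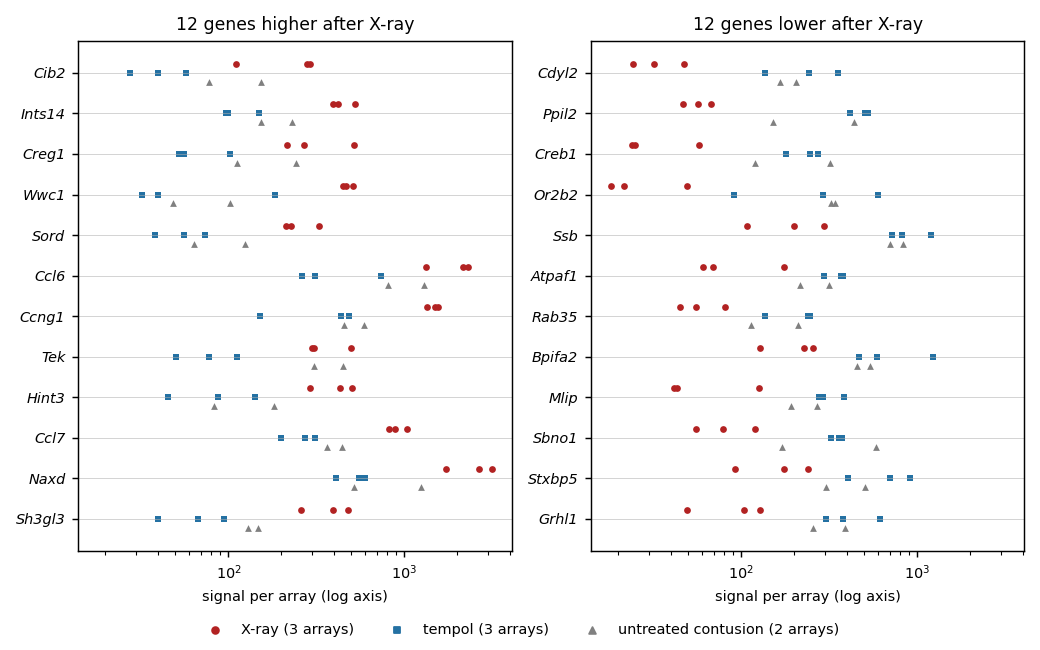
Signal in every array (log axis) of the 12 genes higher and the 12 lower after X-ray with the smallest p, with circles for X-ray, squares for tempol and triangles for untreated contusion. The X-ray and tempol arrays do not overlap in any panel, which is how the genes were chosen.

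Genes that p53 switches on were followed first, since they are the textbook answer to radiation. Of 23 measured genes 18 stood higher in X-ray than in tempol, with a median of 0.41 against 0.02 over all genes, and none passed the adjusted threshold. All 3 X-ray arrays lay above tempol in 4 of them (17.4%, 8.43% of all genes) and below in 1. Besides Ccng1, these were Phlda3, an inhibitor of the kinase Akt, with 789, 413 and 525 against 64.9, 214 and 283 (1.82 ± 0.77, adjusted p = 0.708), Mdm2, the ubiquitin ligase that removes p53, with 1359, 1654 and 1618 against 1334, 833 and 956 (0.59 ± 0.37), and the stress sensor Sesn2 (0.60 ± 0.57). Other probe sets of Mdm2 gave 2.37 ± 0.81, without overlap, and −0.15 ± 0.65, and that of Sesn2 gave −0.23 ± 0.89. Ei24 overlapped between the groups (1.01 ± 0.44).

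Cdkn1a, the cell cycle inhibitor p21 and the best known of the p53 targets, did not separate the groups. Its signals were 1280.4, 1921 and 2712 after X-ray and 693, 218 and 3869 after tempol, so the highest and the lowest array of all both came from tempol (1.17 ± 1.07, adjusted p = 0.921). Over the alternatives the difference ran from 0.20 to 2.28, the latter without tempol 3, the high array. Sesn1, a relative of Sesn2, stood the other way, with 95.9, 133 and 65.6 after X-ray and 166, 267 and 171 after tempol (−1.06 ± 0.61), though its second probe set did not follow (0.07 ± 0.56). Against the shared contusion arrays the median of the list was 0.36 in X-ray and −0.23 in tempol. The level of the list per array, the median over its genes of log2 signal minus the gene's mean over the 6 arrays, was 0.31, 0.40 and 0.06 in X-ray and −0.37, −0.09 and 0.07 in tempol, so X-ray 3 overlapped with tempol 3.

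The promoters of these genes show where a p53 motif could lie. The motif searched was the p53 decamer, the 10-base unit that p53 dimers recognise, on both strands of the 250 bases before each start site in RefSeq (build GRCr8). It was found before 6 of the 19 list genes with a promoter entry (31.6%), Aen, Ccng1, Cdkn1a, Ei24, Gadd45a and Sesn1, and before 7.15% of all 27457 genes, where a gene counts once if any of its promoters holds it. The promoters of Ccng1, with the largest difference, of Cdkn1a, the best known target, and of Sesn1, which stood the other way, are printed 5′ to 3′ on the gene's strand and end at the base before the start site, with the decamer in capitals.
Ccng1 (chr10:25684877-25685126, minus strand): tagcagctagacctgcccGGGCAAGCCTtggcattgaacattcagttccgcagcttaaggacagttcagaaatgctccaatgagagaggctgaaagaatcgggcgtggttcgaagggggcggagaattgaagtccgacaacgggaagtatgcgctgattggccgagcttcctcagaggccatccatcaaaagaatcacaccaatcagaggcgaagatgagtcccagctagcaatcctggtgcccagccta
Cdkn1a (chr20:7150682-7150931, plus strand): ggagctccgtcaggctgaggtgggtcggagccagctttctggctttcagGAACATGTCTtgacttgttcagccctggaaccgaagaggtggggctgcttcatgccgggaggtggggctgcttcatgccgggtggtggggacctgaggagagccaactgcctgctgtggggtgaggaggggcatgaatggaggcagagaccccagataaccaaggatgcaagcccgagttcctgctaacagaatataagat
Sesn1 (chr20:46948469-46948718, plus strand): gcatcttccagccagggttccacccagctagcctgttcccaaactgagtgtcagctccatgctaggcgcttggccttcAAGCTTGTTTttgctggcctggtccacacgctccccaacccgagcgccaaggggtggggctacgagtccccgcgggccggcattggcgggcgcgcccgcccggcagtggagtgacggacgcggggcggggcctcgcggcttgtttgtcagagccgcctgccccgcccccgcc
The decamer begins 232 bases before the start site in Ccng1, 201 in Cdkn1a and 172 in Sesn1. A match describes these letters only, and the 3 genes that carry one differed by 2.20, 1.17 and −1.06.

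Genes of the cell cycle and of DNA replication lay on the other side. Of 36 measured genes 27 stood lower in X-ray than in tempol, with a median of −0.43, the lowest of the 40 lists followed, and none passed. All 3 X-ray arrays lay below tempol in 6 of them (16.7% against 7.01% of all genes) and above in 1. The level of the list was −0.18, −0.11 and −0.06 in X-ray and 0.23, 0.11 and 0.09 in tempol, without overlap. Against contusion the median was −0.37 in X-ray and −0.19 in tempol. Without X-ray 1 the median of X-ray minus tempol was −0.21.

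The 6 genes act in mitosis, apart from the replication helicase subunit gene Mcm3 (−0.88 ± 0.63). Ccnb2, the cyclin that starts mitosis with Cdk1, had 106, 63.3 and 88.7 after X-ray, 144, 139 and 270.2 after tempol and 271 and 186 in untreated contusion (−1.06 ± 0.49, adjusted p = 0.757). Birc5, the survivin gene of the chromosomal passenger complex, had 27.4, 24.7 and 30.9 against 43.5, 51.9 and 73.2 (−0.99 ± 0.51, contusion 52.9 and 68.2). For both, all X-ray arrays also lay below the contusion arrays. Prc1, which bundles microtubules of the midzone, had 60.2, 75.1 and 74.9 against 321, 213 and 96.7 (−1.43 ± 0.80), Plk1, the polo-like kinase, 279.5, 170.4 and 316 against 698, 397 and 974 (−1.39 ± 0.90), and the kinase gene Aurkb differed by −1.12 ± 0.77. In Prc1 and Plk1 the contusion arrays, at 75.5 and 90.6 and at 206 and 267, were close to X-ray, and the tempol arrays were the high ones. Many of these signals were low. The proliferation marker Mki67 overlapped between the groups (−0.48 ± 0.72), as did Pcna (−0.34 ± 0.65) and Top2a, which leaned toward X-ray (0.38 ± 0.63).

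Tyms, the thymidylate synthase gene that makes the thymidine of new DNA, was the 1 gene of the list with all X-ray arrays above tempol. It had 254, 311 and 320.2 after X-ray and 62.8, 91.8 and 35.7 after tempol, a difference of 2.31 ± 0.72 (4.97-fold, adjusted p = 0.622). Contusion, at 193 and 317, also lay above all tempol arrays. Promoters of late cell cycle genes commonly carry CCAAT boxes and the cell cycle homology element TTTGAA. Searched on both strands of the same 250 bases, CCAAT was found before 22 of the 29 list genes with an entry (75.9%, 36.1% of all genes) and TTTGAA before 10 (34.5%, 17.2% of all genes). The promoter of Prc1, the lowest of the list, holds both, in capitals, with the first CCAAT on the opposite strand.
Prc1 (chr1:143659231-143659480, plus strand): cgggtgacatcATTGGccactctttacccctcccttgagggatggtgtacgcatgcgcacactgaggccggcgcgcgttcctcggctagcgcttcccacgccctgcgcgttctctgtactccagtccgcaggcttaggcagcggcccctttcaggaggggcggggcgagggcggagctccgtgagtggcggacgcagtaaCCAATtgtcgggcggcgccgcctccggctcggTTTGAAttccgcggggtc

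Of 23 genes of DNA repair 9 stood higher in X-ray and 14 lower, with a median of −0.20, and the list's levels overlapped between the groups. That median ran from −0.32 without X-ray 1 to −0.10 without tempol 3 and was −0.37 with the filter on low signal. It stayed below 0 in every alternative. Parp1, which senses DNA strand breaks, was the one with the smallest p, at 2244, 2009 and 2424 after X-ray, 1099, 1138 and 1564 after tempol and 1103 and 1221 in contusion (0.83 ± 0.36, adjusted p = 0.708). Its X-ray arrays lay above all others. Xrcc6, the Ku70 gene of end joining, differed by 1.53 ± 0.77 and Rad50, of the complex that tethers broken ends, by −1.02 ± 0.55, both with overlapping arrays, and the other probe sets of Rad50 gave 1.13 ± 0.98 and −1.28 ± 0.59. The apoptosis genes had a median of 0.14 over 17 genes, which was 0.36 without tempol 1, 0.02 without tempol 2, 0.07 without tempol 3, 0.08 without X-ray 1 and −0.13 with the filter.

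**Figure D3:**
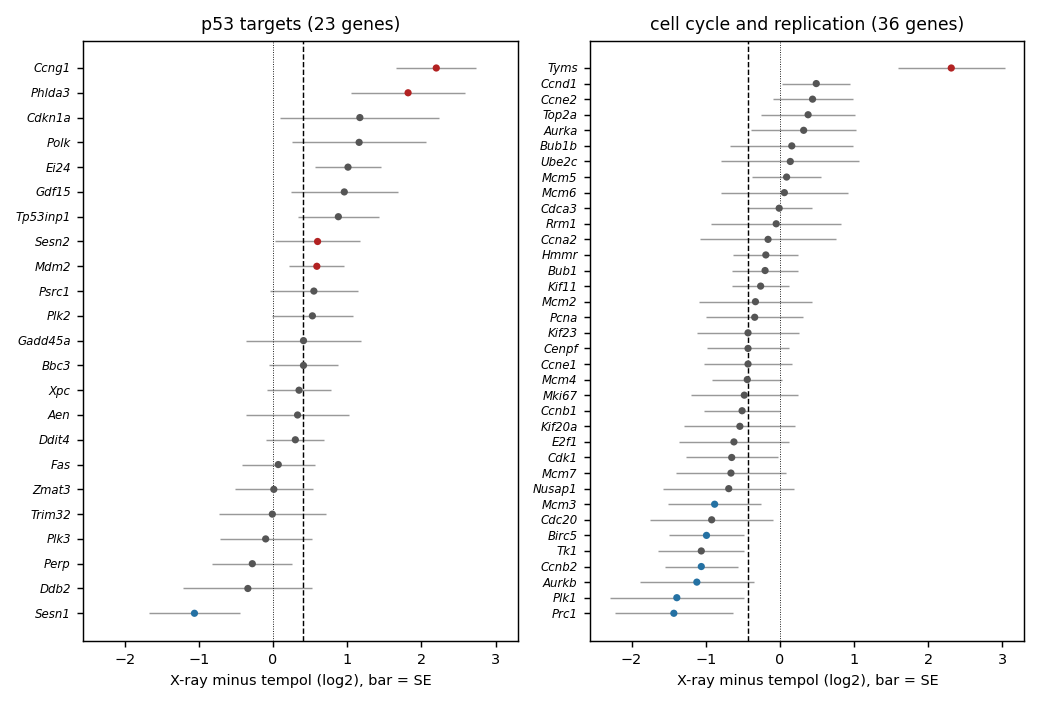
Difference of X-ray minus tempol (log2, bars are standard errors) for every measured p53 target and cell cycle gene, with red where all X-ray arrays lie above tempol, blue where all lie below and grey where they overlap. Dashed lines are the medians, 0.41 and −0.43.

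Among the enzymes of superoxide, peroxide and thioredoxin chemistry, on which tempol bears most directly, Sod2 stood out. This mitochondrial manganese superoxide dismutase turns superoxide into hydrogen peroxide. Its signals were 748, 889 and 486 after X-ray and 142, 149 and 159 after tempol, a difference of 2.19 ± 0.70 (4.58-fold, adjusted p = 0.650), while the contusion arrays spread from 83 to 457 and so spanned the tempol arrays. The cytosolic Sod1 (0.37 ± 0.81), the extracellular Sod3 (0.74 ± 0.80) and the catalase gene Cat (−0.07 ± 0.51) overlapped between the groups. For the NADPH oxidase of phagocytes, which makes superoxide, Ncf4 stood higher in all X-ray arrays (1.75 ± 0.76), as did Cyba (0.81 ± 0.38, second probe set −0.05 ± 0.50), with Ncf1 lower in all of them (−0.93 ± 0.85) and Cybb overlapping (0.13 ± 0.52). Over the 23 genes the median was 0.13, with 14 higher, and it was −0.01 after cyclic loess normalization and 0.33 without tempol 3, 0.20 without X-ray 3 and 0.06 without X-ray 1.

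Glutathione genes, named in the submitters' sample descriptions, had a median of 0.39 with 21 of 34 higher in X-ray. Of them 4 (11.8%) lay above tempol in all arrays and 1 (2.94%) below, against 8.43% and 7.01% of all genes. That median was 0.10 without tempol 3, 0.18 without tempol 1, 0.20 without X-ray 3 and 0.24 without X-ray 2. Gstp1, the glutathione transferase of class pi, had 1058, 1278 and 1066 against 353, 373 and 479, with contusion at 398 and 397 (1.50 ± 0.45, 2.84-fold, adjusted p = 0.621). Here contusion lay with tempol and X-ray stood apart. Mgst3 (0.81 ± 0.41) and Gsta1 (0.73 ± 0.44) overlapped, and so did the genes of glutathione synthesis, with Gclc at 0.03 ± 0.48, Gclm at 0.66 ± 0.58, Gss at −0.32 ± 0.58 and the cystine carrier Slc7a11 at −0.43 ± 0.60.

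The targets of NRF2, the transcription factor of the antioxidant response, share Gstp1 and some other genes with that list. They had a median of 0.33, with 15 of 23 higher, 4 (17.4%) above tempol in all arrays and 0 below. Hmox1, the heme oxygenase, had 3039, 2893 and 2364 after X-ray, 1344, 1308 and 1611 after tempol and 2058 and 1877 in contusion between them (0.96 ± 0.41, adjusted p = 0.708). Txnrd1, the thioredoxin reductase, differed by 0.91 ± 0.40 with overlapping arrays, and Taldo1 of the pentose phosphate pathway by 1.07 ± 0.47. The level of the list was 0.30, 0.07 and 0.26 in X-ray and −0.47, 0.06 and 0.06 in tempol, so the gap rested largely on tempol 1, without which the median was 0.16. Nqo1, a classic NRF2 target, overlapped (0.32 ± 0.38), as did the metallothionein Mt2A (0.71 ± 0.95) and the neuronal and astrocytic Mt3 (1.61 ± 0.81). A further metallothionein, Mt1, stood lower in all X-ray arrays (−0.58 ± 0.69). The list of metallothionein and iron genes had a median of 0.53. Of its 14 genes 1 (7.14%) lay above tempol in all arrays and 2 (14.3%) below.

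Among inflammatory genes the list of cytokines and chemokines leaned toward X-ray, though no gene of it passed. Of 31 cytokines and chemokines 20 stood higher, with a median of 0.42, 5 (16.1%) above tempol in all arrays and 0 below, and the list's level did not overlap, at 0.15, 0.28 and 0.18 against −0.37, −0.09 and −0.14. Next to Ccl6 and Ccl7, Ccl2, the main monocyte attractant, had 2575, 3924 and 5077 against 1582, 612 and 2569 (1.46 ± 0.62, adjusted p = 0.708, contusion 2239.6 and 2307), where the lowest X-ray array barely cleared the highest tempol array. The neutrophil attractant Cxcl3 differed by 2.04 ± 0.76 and the cytokine gene Il6 by 1.66 ± 0.80, both with overlap (other probe sets of Cxcl3 from −0.58 to 1.36), and Il1rn, the natural antagonist of interleukin-1, by 1.13 ± 0.49. Il1b (−0.09 ± 0.72) and Tnf (0.42 ± 0.51) overlapped, as did the inflammatory enzyme genes Nos2 (−0.74 ± 0.72) and Ptgs2 (0.05 ± 0.59). The second probe set of Tnf gave −1.06 ± 0.82. Without tempol 1 the median of the list was 0.17, and with 16 added to each signal before log2 it was 0.23. Feedback genes of the transcription factor NF-kB had a median of 0.09, which was −0.07 without tempol 1. Of these 20 genes 4 (20.0%) lay above tempol in all arrays and 2 (10.0%) below.

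Neutrophil markers had a median of 0.50 with 9 of 11 higher, which was 0.28 without X-ray 3 and 1.27 with the filter on low signal. S100a8 and S100a9 encode the pair of proteins that form calprotectin, abundant in neutrophils. S100a8 had 755, 924 and 966 after X-ray, 214, 156 and 262 after tempol and 279 and 321 in contusion (2.09 ± 0.67, adjusted p = 0.650), and S100a9 had 1757, 2786 and 2336 against 468, 487 and 1236, with contusion at 634 and 1267 (1.78 ± 0.68). The X-ray arrays were the high ones in both genes, and tempol and contusion lay together. Il1r2, the decoy receptor of interleukin-1, differed by 2.02 ± 1.04, while the granule genes Camp (−1.33 ± 1.00) and Mmp9 (−0.14 ± 0.65) did not follow. In bulk tissue, fewer cells of a type and less RNA per cell cannot be told apart, here and for all markers below.

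Macrophage markers had a median of 0.23, or 0.48 with the filter, and all 3 X-ray arrays lay above tempol in 8 of 19 (42.1% against 8.43% of all genes) and below in 1. Apoe, the lipid carrier of glia and macrophages, had 2414, 2752 and 2968 against 1256, 1249.5 and 1256, with contusion at 1813 and 1467 (1.11 ± 0.54). Lyz2, the lysozyme, had 11080.0, 11157 and 12287 against 6724, 7802 and 7154 (0.67 ± 0.37), with contusion at 10504 and 10838, so tempol was low and X-ray close to untreated cord. The same held for the galectin Lgals3 at 4905, 4188 and 4799 against 2878, 2603 and 3181, with contusion at 4308 and 4508 (0.68 ± 0.58). Cd14, the endotoxin co-receptor, differed by 0.91 ± 0.42 and Cd163, the hemoglobin scavenger, by 1.44 ± 0.90. Over the list the median against contusion was −0.02 in X-ray and −0.49 in tempol. Cd68 (−0.85 ± 0.79) and Gpnmb (−0.23 ± 0.48) overlapped, and Ms4a7 stood lower in all X-ray arrays (−0.94 ± 0.51).

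Microglia markers had a median of −0.03 over 12 genes, and it changed sign between alternatives, from −0.16 without X-ray 1 to 0.07 without X-ray 3. Laptm5, a lysosomal membrane gene of blood cells, had 555, 347 and 342 against 82.2, 108 and 113 (2.02 ± 0.71), but its second probe set showed no such gap (−0.02 ± 0.69). Aif1, which both microglia and macrophages express, overlapped (0.09 ± 0.82). In the interferon list 19 of 28 stood higher, with a median of 0.38 and 5 (17.9%) above tempol in all arrays. The immunoproteasome gene Psmb9 had 202, 529.7 and 519 against 44.8, 67.2 and 96 (2.53 ± 0.95), and the ubiquitin-like Isg15 706, 722 and 678 against 262, 334 and 164 (1.53 ± 0.65), with both contusion arrays of either gene in or near the tempol range. Tap1, the peptide transporter encoded beside Psmb9, went the other way (−1.83 ± 0.65, overlapping). The class II gene RT1-Db1 had 19.7, 41.4 and 48.8 against 142, 424 and 139 (−2.57 ± 0.84), but its second probe set overlapped (0.56 ± 0.67) and RT1-DMb stood higher (0.62 ± 0.36). The lymphocyte list had a median of −0.21 over 19 genes, which was −0.44 without tempol 1, −0.35 without tempol 3, −0.34 without X-ray 3 and 0.14 with the filter on low signal.

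Astrocyte markers stood higher in 14 of 15, with a median of 0.50, 7 (46.7%) above tempol in all arrays and 1 below, and a level of 0.26, 0.40 and 0.36 in X-ray against −0.69, −0.38 and −0.06 in tempol. S100b, the calcium-binding protein of astrocytes, had 7986, 8858 and 6966 after X-ray, 2707, 2863 and 3823 after tempol and 4492 and 3932 in contusion (1.35 ± 0.39, 2.55-fold, adjusted p = 0.621). Aqp4, the water channel of astrocyte endfeet, had 3914, 5186 and 4704 against 1167, 1908 and 2945, with contusion at 1538 and 2584 (1.29 ± 0.44). Glul, the glutamine synthetase that clears glutamate, had 8037, 6058 and 6038 against 2673, 2521 and 3343, with contusion at 3220.1 and 3921 (1.24 ± 0.46). In all 3 genes the X-ray arrays lay above contusion as well.

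Gfap, the filament of reactive astrocytes, followed with 20095, 18399.5 and 19033 against 8054, 13924 and 13259, and 12101 and 12442 in contusion (0.75 ± 0.38, adjusted p = 0.790). The neurotensin receptor gene Ntsr2 differed by 0.95 ± 0.37 and the glutamate transporter Slc1a2 by 2.49 ± 1.09, whereas the other glutamate transporter, Slc1a3, stood lower in all X-ray arrays (−0.80 ± 0.66). Other probe sets of these transporters overlapped, with 0.07 ± 0.72 for Slc1a2 and 1.66 ± 0.79 and 0.16 ± 0.47 for Slc1a3, while both others of Glul stood higher in all X-ray arrays. Over the astrocyte list the median against contusion was 0.64 in X-ray and −0.07 in tempol. Genes of reactive astrocytes, some of which macrophages also express, had a median of 0.52 with 15 of 21 higher. Of the list, 3 (14.3%) lay above tempol in all arrays and 2 (9.52%) below, against 8.43% and 7.01% of all genes. Sphk1, which makes sphingosine phosphate, stood lower in this list (−1.44 ± 0.59), and Serping1, the C1 inhibitor, overlapped (1.74 ± 0.87).

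Oligodendrocyte and myelin genes stood higher in 19 of 20, with a median of 0.49. All 3 X-ray arrays lay above tempol in 8 of them (40.0% against 8.43% of all genes) and below in 0. The differences were small. Mog, a surface protein of myelin, had 721, 704 and 501 against 360.3, 461 and 238, with contusion at 485 and 453 (0.90 ± 0.36, adjusted p = 0.699), and Mobp had 5699, 7644 and 5408 against 3269, 3462 and 3564, with contusion at 5134 and 4949 (0.85 ± 0.37). Enpp2, the autotaxin gene, differed by 1.09 ± 0.54. Mbp, the myelin basic protein, overlapped on its brightest probe set (0.08 ± 0.51), whose sign changed between alternatives, and stood higher in all X-ray arrays on the other 2 (1.25 ± 0.48 and 1.66 ± 0.71). The level of the list was 0.35, 0.33 and 0.00 in X-ray and −0.23, −0.32 and −0.05 in tempol, so X-ray 3 only just cleared tempol 3, and the median was 0.33 without X-ray 1 and 0.70 without X-ray 3.

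Progenitors of oligodendrocytes had the highest median of the 40 lists, 0.66 over 10 genes. Of these genes 4 (40.0%) lay above tempol in all arrays and 1 (10.0%) below, against 8.43% and 7.01% of all genes. Pdgfra, the growth factor receptor that defines these cells, had 472, 487 and 636 against 80.3, 221 and 376, with contusion at 207 and 392 (1.48 ± 0.66). Bcan, the proteoglycan brevican, had 1354, 1553 and 829.6 against 258, 522 and 776, with contusion at 561 and 536 (1.35 ± 0.57). Cspg5, the proteoglycan neuroglycan C, was the opposite, with 55.4, 29 and 26.8 against 332, 91.1 and 90 (−1.99 ± 0.65). Without X-ray 1 the median of the list was 0.40, and without tempol 1 it was 0.42. After cyclic loess normalization the medians were 0.50 for astrocytes, 0.38 for myelin and 0.67 for progenitors.

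**Figure D4:**
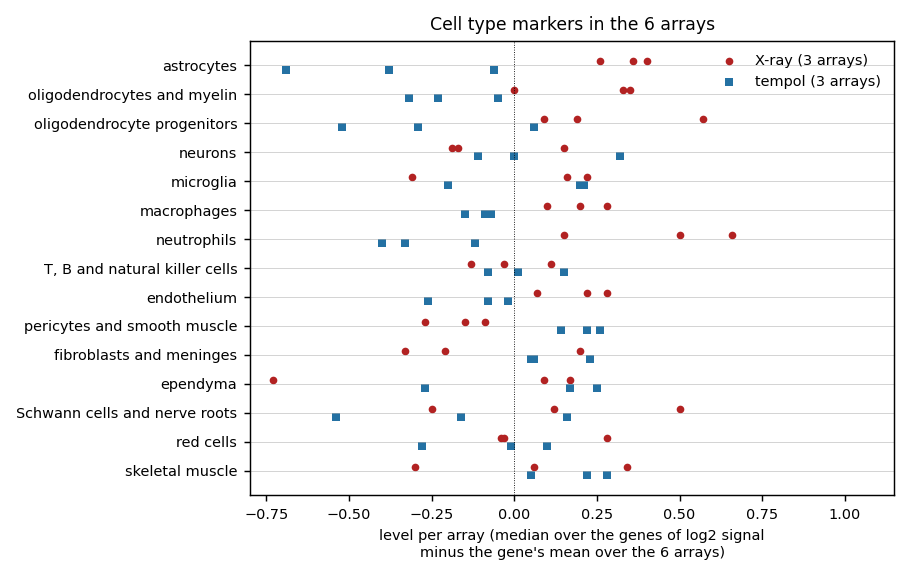
Level of each list of cell type markers in the 3 X-ray arrays (circles) and 3 tempol arrays (squares), as the median over its genes of log2 signal minus the gene's mean over the 6 arrays. The groups do not overlap for astrocytes, oligodendrocytes, progenitors, macrophages, neutrophils and endothelium, higher in X-ray, nor for pericytes and smooth muscle, higher in tempol.

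The endothelial list and the list of pericytes and smooth muscle had medians on opposite sides of 0, and no gene of either passed. Endothelial genes had a median of 0.21 with 10 of 17 higher, led by Tek and by Cldn5, the claudin of the barrier, with 451, 656 and 434 against 182, 172 and 216 (1.42 ± 0.47, adjusted p = 0.658, contusion 247 and 68.1). Pecam1 overlapped (1.08 ± 0.65). The endothelial median was 0.11 without X-ray 1, 0.13 without X-ray 3, 0.43 without X-ray 2 and 0.40 without tempol 2. Pericyte and smooth muscle genes had a median of −0.39 with 4 of 14 higher, which was −0.22 without X-ray 2. Acta2, smooth muscle actin, had 533, 771 and 585 against 1389.5, 812 and 1142, with contusion at 989 and 486 (−0.81 ± 0.39), and Abcc9, the potassium channel subunit of pericytes, had 63.1, 114 and 22.8 against 121, 132 and 252 (−1.54 ± 0.60), while its other probe sets overlapped (0.38 ± 0.64 and 0.41 ± 0.91). Myl9 did not follow them (1.41 ± 0.84, overlapping). Vegfa, the main growth factor of vessels, stood lower in all X-ray arrays (296, 436 and 404 against 525, 1008 and 622, −0.89 ± 0.48).

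Neuron markers had a median of −0.11 with 9 of 27 higher. That median was −0.20 without X-ray 2 or without tempol 1 and −0.22 after cyclic loess. No neuron marker lay above tempol in all arrays and 2 lay below (7.41%), close to the 7.01% of all genes. These 2 were the growth-associated Stmn2 (−0.71 ± 0.39, second probe set −0.09 ± 0.46) and the glutamate loader Slc17a6 (−0.68 ± 0.38). The inhibitory transmitter loader Slc32a1 overlapped (−1.04 ± 0.55), as did the neurofilament gene Nefl (−0.51 ± 0.50). Against contusion the neuron list stood at 0.42 in X-ray and 0.46 in tempol. Ion channel genes had a median of −0.15 with no stable sign, at −0.43 without X-ray 3, 0.00 without X-ray 1 and 0.02 without X-ray 2 or without tempol 1. Among them were the sodium channel Scn8a (−2.95 ± 0.88) and the calcium channel Cacna1b (−1.77 ± 0.49, adjusted p = 0.532), lower in all X-ray arrays, although the second probe set of Cacna1b overlapped (0.50 ± 0.82). Red cell genes (median 0.04 over 12), of which Hbb stood higher in all X-ray arrays (0.98 ± 0.58), skeletal muscle genes (−0.09 over 18) and fibroblast genes (−0.13 over 17) showed levels that overlapped between the groups. With each array left out their medians ran from −0.02 to 0.25, from −0.19 to −0.01 and from −0.27 to −0.10.

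Several housekeeping and stress programmes were also followed. Herpud1, a component of endoplasmic reticulum degradation, had the smallest p of all list genes, with 225, 195 and 203 after X-ray, 51.4, 42.6 and 59.4 after tempol and 122 and 135 in contusion between them (2.03 ± 0.46, 4.09-fold, adjusted p = 0.437). The unfolded protein response had a median of 0.14 over 21 genes, Herpud1 included, with 4 (19.0%) above tempol in all arrays and 0 below, and the chaperone Hspa5 overlapped (0.10 ± 0.46). That median was 0.29 without X-ray 2, 0.05 without tempol 1 and 0.04 without tempol 2. Of the heat shock genes Hsp90ab1 alone lay above tempol in all arrays (1.26 ± 0.44). Genes of cholesterol synthesis had a median of 0.43, with 14 of 18 higher, 5 (27.8%) above tempol in all arrays and 0 below. These included Insig1, the sterol sensor's anchor, with 496, 463 and 474 against 219, 30.2 and 336 (1.87 ± 0.86), Pmvk (1.58 ± 0.69) and Sqle (1.12 ± 0.53), enzymes of the pathway. The median was 0.21 without tempol 2, which was the lowest array in Insig1 and Pmvk.

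Genes of oxidative phosphorylation (33 of 44 higher, median 0.32) and of ribosomal proteins (24 of 31, median 0.27) leaned toward X-ray too, with ribosomal genes at −0.01 after cyclic loess normalization. Across all genes, split into 10 bins by signal, the difference ran from a median of −0.19 in the dimmest bin to 0.19 in the brightest. Cyclic loess, which takes out such a trend, left the brightest bin at 0.01 and oxidative phosphorylation at 0.13, and the latter was also 0.13 without tempol 1 and 0.50 without tempol 3. Ribosomal genes stood at 0.17 without tempol 1 and 0.48 without tempol 3. After cyclic loess the p53 targets stood at 0.45 and the cell cycle genes at −0.38. In all, 29 of the 40 lists had a median above 0 and 11 below. The 3 X-ray levels lay above the 3 tempol levels in 14 lists and below in 2, the cell cycle and the pericyte list.

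**Figure D5:**
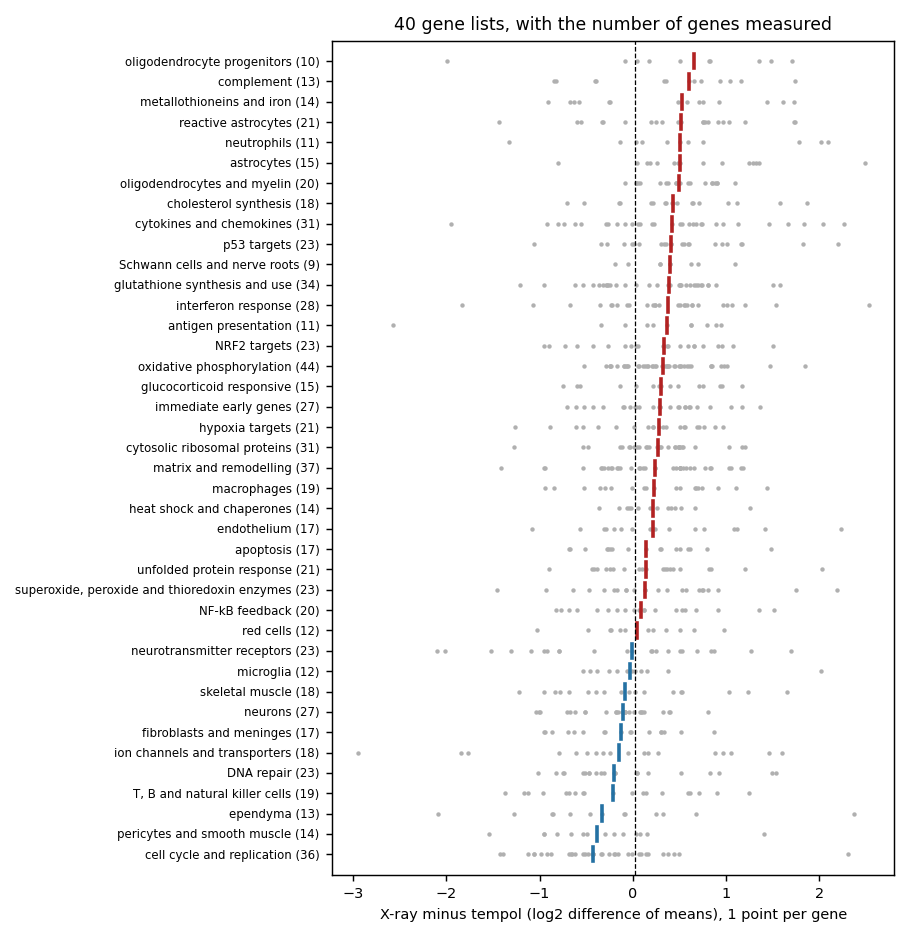
Difference of X-ray minus tempol (log2) for the genes of 40 lists, 1 grey point per gene, with the number of genes measured and the median as a bar, red above 0 and blue below. The dashed line is the median of all genes, 0.02, and medians run from −0.43 for the cell cycle to 0.66 for oligodendrocyte progenitors.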

How the data were processed

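The authors deposited linear signal intensity values, 1 array per sample, and the submitters' processing notes name RMA. The values are neither log2 nor quantile normalized as deposited by the authors: all arrays share a mean of 250.0 to 250.1 when 2% is trimmed from either end, and signals run from 0.3 to 154527.2. Depth has no meaning here, and the number of arrays limits the precision.

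After log2, 31042 probe sets (57 controls left out) entered 1 limma fit (version 3.58.1, R 4.3.3) of 8 group means over all 22 arrays, with eBayes moderation (residual degrees of freedom 14, prior 4.713). Two-sided p-values were adjusted over all probe sets (Benjamini-Hochberg), with a threshold of 0.05. A count of 0 therefore covers every probe set. Of the probe sets, 20826 carry 1 gene symbol, 436 several and 9780 none, and symbols were updated through RefSeq for 20758.

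The comparison, the 40 lists (771 genes measured) and the genes followed were chosen with earlier results of these data known. No list was tested as a set. Named are the 12 genes higher and 12 lower with the smallest unadjusted p, 1 gene symbol, a mean log2 signal above 7.13 and arrays without overlap, then the 3 genes of each list with the smallest p, and a preset group of damage, redox, glial and inflammatory genes. Other members were named after their values were seen, for arrays that do not overlap or that go against their list. Replicate numbers did not pair the arrays. The fit was tested on simulated data. Alternatives were quantile normalization, log2 of signal plus 16 or 32, leaving out probe sets at or below 7.13, trended and robust eBayes, fits of 6 or 16 arrays, array weights, replicate blocks, each array left out and the mean of a gene's probe sets. Cyclic loess was added after seeing the data.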

Additional observations from a re-analysis of the deposited data

How the results depend on the processing

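In X-ray minus tempol the count past the threshold was 0 in the main setting and stayed 0 except with the filter on low signal (1, Cdyl2 with an adjusted p of 0.0374 in limma) and without tempol 2. The counts with 1 array left out ran from 0 to 3. For X-ray minus contusion the count was 1 with that filter, 2 with array weights and 0 to 1 with an array left out, and for tempol minus contusion 0 to 1. Same-numbered arrays did not deviate together (correlations of −0.04, 0.00 and −0.06), and with the replicate number as a block the count was 0 in the fit of 6 arrays and in that of all 22. All 24 genes with the smallest p kept their direction, and 40 of 2935 values of the genes followed changed sign, in 20 genes. The number of lists with a median above 0 was 28 to 31 of 40 over the alternatives, and 10 lists changed sign in at least 1 of them, among them apoptosis with the filter (−0.13) and heat shock without tempol 2 (−0.02).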
